A study of Homo sapiens with 24 samples.

Results

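The promoters of 48 genes for senescence-associated secreted factors were examined in H3K4me3 profiles of EndoC-βH3 cells. The genes were fixed by name, from the factors that senescent cells are known to release. Earlier results of these data were known when they were chosen. For each gene, the H3K4me3 regions lying at least in part within 2 kb of a transcription start site were collected, and the one with the most signal (the highest mean normalized count) gave the promoter value. A region was found for 33 of the 48 genes (68.8%, 95% Wilson interval 54.7 to 80.1), against 15085 of all 20020 protein-coding genes (75.3%). The share among the secreted factors lay near the share among all genes, whose value is within the interval.

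EndoC-βH3 is a beta-like line derived from human fetal pancreas and immortalized with SV40 large T antigen and hTERT, whose genes can be excised by a CreER recombinase that the cells carry. H3K4me3 was profiled by MINT-ChIP, in which barcoded chromatin of several samples is pooled before the immunoprecipitation, in 4 non-senescent (control) and 4 senescent samples of 500000 cells each. All carried the genotype label WT, and all shared the immortalizing genes until 4-hydroxy-tamoxifen (4-OHT) was given to the senescent samples for 3 weeks, at 1 mM per the labels and 1 μM in the methods of the study. The experiment included 16 further samples for H3K27me3 and H3K9me3, which were not analysed here.

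The values used here are means over the compared H3K4me3 samples, senescent and non-senescent together. They therefore carry no replicate error, no value per sample and no comparison of the states. The depth of each sample is unknown, and the means of the 97545 regions sum to 1470677 normalized counts. Differences between promoters are given as descriptions, with no test. In bulk samples, fewer cells with the mark and less of the mark per cell cannot be told apart. The levels of genes were compared per kb of region, because the mean normalized count of a region grows with its width.

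Senescent cells leave the cell cycle but stay metabolically active, and many release a mixture of cytokines, chemokines, growth factors and proteases called the senescence-associated secretory phenotype. Its transcription is commonly driven by NF-κB, C/EBPβ and AP-1, which act on promoters and distant enhancers. H3K4me3 is the trimethylation of lysine 4 on histone H3, a mark placed around the start sites of active genes, most readily at CpG islands, where the dinucleotide CG is not depleted as it is in most of the genome.

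The secreted factors had start sites of very different sequence, shown by 6 promoters. Each stretch of 150 bases lies upstream of the start site and outside exons, was read from the hg38 promoter table of RefSeq, and is written 5′ to 3′ along the gene with every CG in capitals. CXCL12 held the highest and CXCL8 the lowest marked promoter of the chemokines by mean normalized count, IL6 the lowest of the interleukins and IGFBP5 the highest of all members. IL1B and TGFB1 had no region, and TGFB1 was added after its value was seen, as a member without a region whose stretch holds more CG than that of IL1B.
CXCL12, chr10:44385098-44385247, minus strand: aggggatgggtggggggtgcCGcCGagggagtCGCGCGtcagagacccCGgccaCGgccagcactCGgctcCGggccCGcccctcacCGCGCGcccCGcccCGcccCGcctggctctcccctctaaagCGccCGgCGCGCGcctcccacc
CXCL8, chr4:73740369-73740518, plus strand: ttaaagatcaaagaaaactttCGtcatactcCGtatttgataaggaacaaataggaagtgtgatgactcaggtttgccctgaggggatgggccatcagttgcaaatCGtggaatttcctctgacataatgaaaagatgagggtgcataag
IL6, chr7:22726997-22727146, plus strand: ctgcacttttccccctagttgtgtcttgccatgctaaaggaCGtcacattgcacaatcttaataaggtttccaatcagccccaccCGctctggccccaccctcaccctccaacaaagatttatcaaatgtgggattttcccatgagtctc
IL1B, chr2:112836817-112836966, minus strand: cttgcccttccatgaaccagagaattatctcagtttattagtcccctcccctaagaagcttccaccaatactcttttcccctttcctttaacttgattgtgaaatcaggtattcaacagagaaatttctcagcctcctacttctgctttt
IGFBP5, chr2:216695643-216695792, minus strand: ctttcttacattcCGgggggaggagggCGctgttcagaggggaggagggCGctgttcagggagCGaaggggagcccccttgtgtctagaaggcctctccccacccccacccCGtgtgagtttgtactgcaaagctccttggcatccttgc
TGFB1, chr19:41353923-41354072, minus strand: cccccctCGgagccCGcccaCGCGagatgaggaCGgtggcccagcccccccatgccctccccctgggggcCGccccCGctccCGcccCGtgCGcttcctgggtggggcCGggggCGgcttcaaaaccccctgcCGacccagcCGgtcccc
The CXCL12 stretch held 21 CG dinucleotides and the TGFB1 stretch 14. The median was 13 over all promoters of the table, in the 150 bases directly upstream of each start. The stretches of IGFBP5, CXCL8, IL6 and IL1B held 5, 3, 2 and 0. To avoid exons they lay 93, 50, 53 and 37 bases further upstream, in that order, so the median is not from the same position. The CG count of the TGFB1 stretch was near the median, at percentile 54.7 of all promoters of the table, and TGFB1 had no region. IGFBP5 carried the widest region of the members although its stretch held few CG, but 150 bases are a small part of that region of 12732 bp.

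Where a region was present, its H3K4me3 was mostly narrower and less dense than at the median promoter, though not beside promoters of similar mean normalized count, as described below. The median level of the 33 secreted factor promoters was 12.9 mean normalized counts per kb (95% order-statistic interval 9.59 to 17.5, range 2.31 to 32.3), against 19.0 per kb over the 15085 promoters with a region. Their median width was 1289 bp (interval 1008 to 1630), against 2492 bp. In the whole region, the median was 15.2 mean normalized counts (interval 10.9 to 31.1, range 1.16 to 227), against 49.2. The level per kb was below the median of all promoters at 26 of 33 genes, the width at 28 and the mean normalized count at 29. By mean normalized count, 20 of the 33 lay in the lowest quartile of all promoters, and IGFBP5 and VEGFA lay in the highest. The intervals given here reflect the number of genes alone, not the error of the measurement.

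A mean normalized count of at least 10 was reached by 25 of the 48 genes (52.1%, Wilson interval 38.3 to 65.5), against 64.9% of all protein-coding genes. The members nearest this limit were IGFBP6 at 10.5 and TIMP2 at 10.1 above it, and PLAT at 6.75 and CCL2 at 5.38 below it. Among the 33 genes with a region, 13 had at least 2 regions (39.4%), against 44.5% of all promoters with a region.

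**Figure D1:**
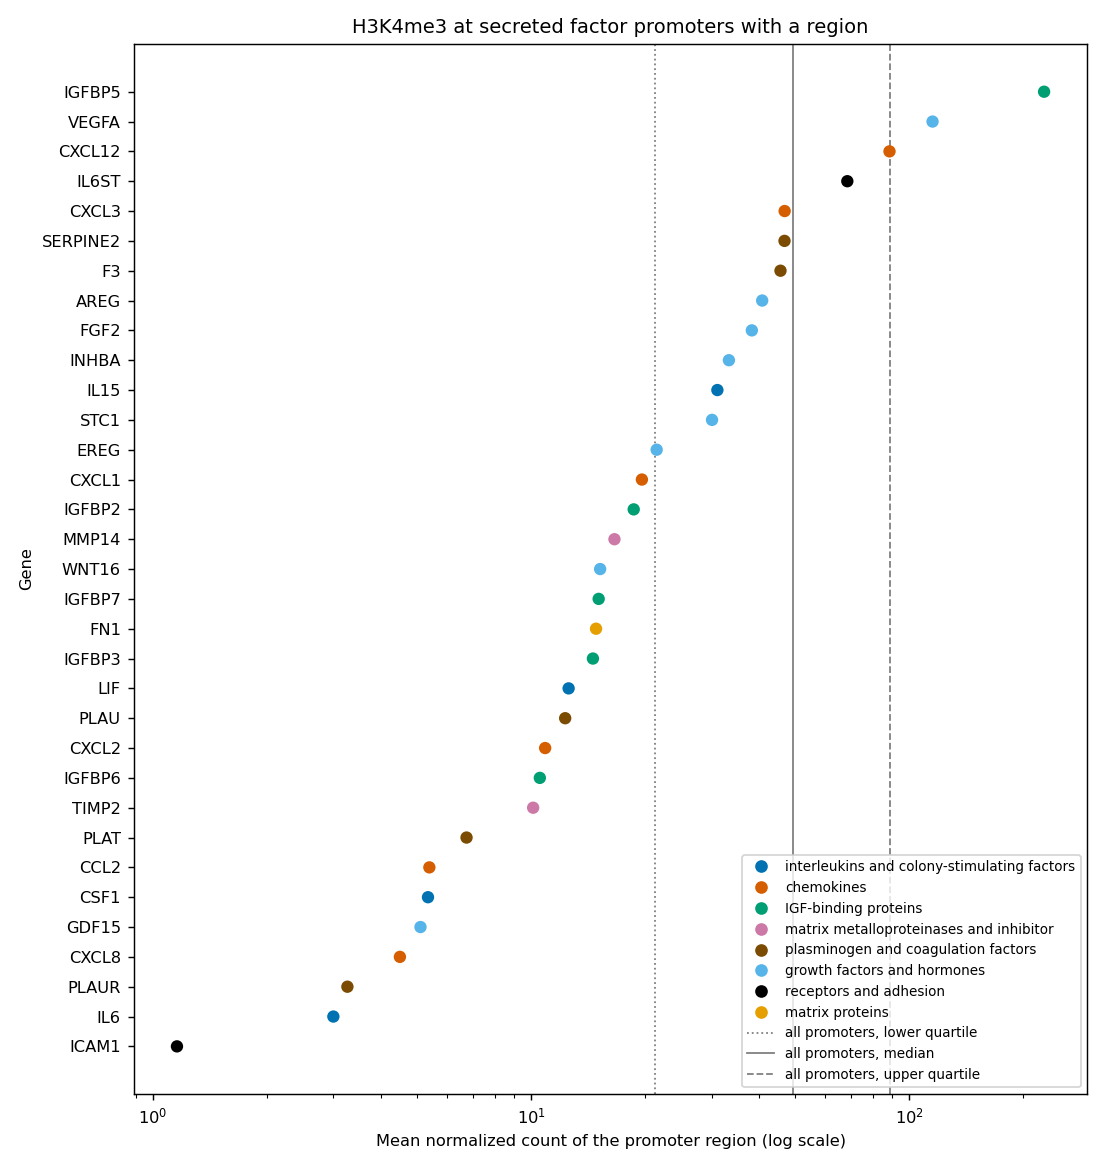
Mean normalized count of the promoter region (log scale) of the 33 secreted factor genes with an H3K4me3 region, each point 1 gene coloured by role, with lines at the quartiles and median of all promoters with a region. Of the points, 29 lie left of the median line at 49.2 and 20 left of the lower quartile at 21.3, while IGFBP5 stands highest at 227 and ICAM1 lowest at 1.16.

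Of the 7 interleukins and colony-stimulating factors, 4 had a region, with 5.29 to 15.5 mean normalized counts per kb. IL15, a cytokine that sustains natural killer and memory T cells, had 31.1 mean normalized counts over 2126 bp (14.6 per kb), and its region spanned the start site. LIF, a cytokine of the IL-6 family, had 12.6 over 811 bp (15.5 per kb), in a region that began 13 bp downstream of its canonical start. Both levels per kb lay below the 19.0 of the median promoter. CSF1, the growth factor of macrophages, had 5.33 over 1008 bp (5.29 per kb).

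IL6, the cytokine most often named in the secretory phenotype, had little H3K4me3. Its strongest region held 3.00 mean normalized counts over 500 bp (5.996 per kb), from −1941 to −1441 bp relative to the canonical start, and a neighbouring region held 2.74 over 640 bp (4.28 per kb). Both ended before the canonical start, but the weaker region covered another annotated start site of IL6. The stronger region also lay within 2 kb of a start site of STEAP1B, so its signal cannot be assigned to IL6 alone. IL1A and IL1B, the interleukin-1 cytokines that act upstream of much of the secretory programme, and CSF2, which encodes GM-CSF, had no region. The nearest region lay 18361 bp from a start site of IL1A (69.6 mean normalized counts), 25499 bp from IL1B (2.04) and 39481 bp from CSF2 (3.56).

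Of the 8 chemokines, 6 had a region, with 6.35 to 19.95 mean normalized counts per kb. CXCL12, the stromal chemokine that binds CXCR4, had 88.6 over 4442 bp (19.95 per kb), and its percentile by mean normalized count was 75 among all promoters with a region. That region lay between 619 and 5061 bp downstream of the canonical start. A further region of 1131 bp with 12.0 mean normalized counts lay on the upstream side and reached the canonical start. Another of 523 bp held 3.92. The signal at CXCL12 was thus split into 3 pieces, and the CG-rich stretch printed above lies within the one of 1131 bp.

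CXCL3, one of the neutrophil-attracting chemokines, had 46.8 mean normalized counts over 2485 bp (18.8 per kb), close to the median promoter per kb. CXCL1 and CXCL2, its close relatives, had 12.04 and 10.99 per kb. CCL2, which attracts monocytes, had 10.8 per kb in a region of 500 bp. CXCL8, which encodes interleukin-8, had the lowest level of the group, at 4.50 over 708 bp (6.35 per kb), at chr4:73740203-73740911, a region that spanned its start site. CCL5, an attractant of T cells and monocytes, and CCL20, the ligand of CCR6, had no region. The nearest lay 48922 bp from CCL5 (30.0 mean normalized counts) and 6828 bp from CCL20 (1.85).

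Of the members, 6 lie on chromosome 4 within 704.567 kb, from the start of CXCL8 to that of AREG. This stretch, taken with 20000 bp on each side, held 23 regions, of which 11 were near a start site of a protein-coding gene and 12 were not. The 12 others were low, with a median of 2.89 and a maximum of 10.9 mean normalized counts. Of the 14 protein-coding genes in the stretch, 11 had a promoter region. The region with the most signal belonged to none of the chemokines or growth factors but to MTHFD2L, a mitochondrial folate enzyme gene, with 80.8 mean normalized counts. The 4 CXC chemokines of the list held 4.50 (CXCL8), 19.6 (CXCL1), 46.8 (CXCL3) and 10.9 (CXCL2) there. These genes are close relatives in sequence, and the share of 31-base stretches that occur once in the genome was 90.2% in the CXCL3 region, 91.3% in CXCL1 and 94.8% in CXCL2, against at least 97.3% in the other 30 regions.

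**Figure D2:**
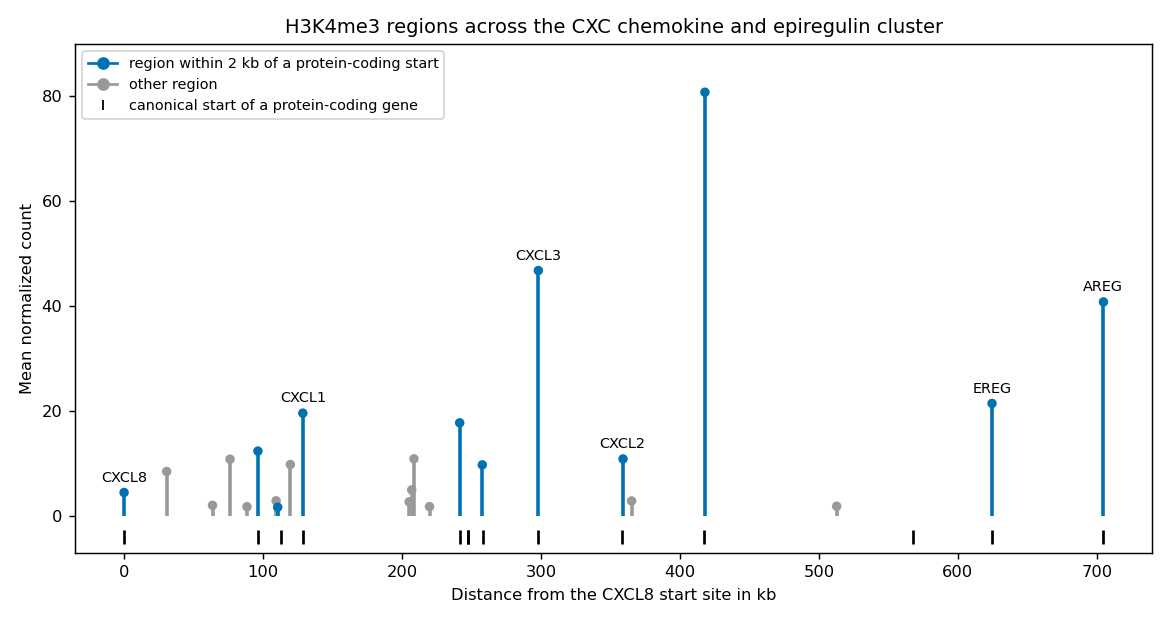
Mean normalized count of each H3K4me3 region (vertical axis) along the chromosome 4 cluster, by distance in kb from the CXCL8 start site, with blue stems for regions within 2 kb of a protein-coding start, grey stems for others and black ticks for canonical starts. The grey stems stay at or below 10.9, CXCL3 and AREG reach 46.8 and 40.8, and the tallest stem, without a label, is MTHFD2L at 80.8.

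Of the 6 IGF-binding proteins, 5 had a region, with 7.497 to 17.8 mean normalized counts per kb. IGFBP5, which binds insulin-like growth factors and heparin, had the highest mean normalized count of all members, 227 over 12732 bp at chr2:216688705-216701437. Its percentile by mean normalized count was 98.2 among all promoters with a region. Its level per kb was 17.8, below the 19.0 of the median promoter, so its signal was spread over a wide stretch. Among the 200 promoters nearest to it in mean normalized count, the median width was 6574 bp and none was wider. The region ran from −5888 to 6844 bp relative to the canonical start.

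IGFBP2, the neighbour of IGFBP5 on chromosome 2, had 18.7 mean normalized counts over 1178 bp (15.8 per kb), downstream of its canonical start. A second region of 576 bp held 8.18 upstream of that start. IGFBP3, the main carrier of insulin-like growth factors in serum, had 4 regions, of which the strongest held 14.6 over 1120 bp (13.0 per kb) and the others between 2.87 and 4.05. IGFBP7 had the lowest level per kb of the group, 7.497 over 2012 bp. Its region was wider than 95% of the 200 promoters of similar mean, which restates the low level, since the mean is divided by the width. IGFBP6 was the lowest by mean normalized count, at 10.5 over 1099 bp (9.59 per kb). IGFBP4 had no region, and the nearest lay 24681 bp away with 50.7 mean normalized counts.

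Of the 5 genes for matrix metalloproteinases and their inhibitor, 2 had a region. MMP14, the membrane-type protease that activates pro-MMP2, had 16.6 mean normalized counts over 1327 bp (12.5 per kb), across its start site. TIMP2, an inhibitor of these proteases, had 10.1 over 1082 bp (9.35 per kb), but this region lay 21580 bp or more downstream of the canonical start, near another annotated start site, and was shared with CEP295NL. No region lay within 2 kb of the canonical start of TIMP2. MMP1, MMP2 and MMP3, a collagenase, a gelatinase and a stromelysin, had none. The nearest region to MMP1 lay 43563 bp away, and the same region, with 26.7 mean normalized counts, was the nearest to MMP3 at 89436 bp. MMP2 was the closest to having one, with a region of 19.0 mean normalized counts 3564 bp from its nearest start site.

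All 5 plasminogen and coagulation factors had a region, with 4.34 to 27.6 mean normalized counts per kb. SERPINE2, an inhibitor of thrombin and urokinase, had 46.8 over 1697 bp (27.6 per kb), downstream of its canonical start, and a second region of 500 bp with 3.13. F3, the tissue factor that starts coagulation, had 45.6 over 3533 bp (12.9 per kb) and a second region of 1142 bp with 7.65. The 2 genes held like amounts of H3K4me3 in the whole region, in widths that placed SERPINE2 at percentile 8.5 and F3 at percentile 87.5 of their respective promoters of similar mean. PLAU, which encodes urokinase, had 9.35 per kb. PLAUR, the urokinase receptor, was the lowest, with 3.27 over 752 bp (4.34 per kb) and a second region with 1.71. PLAT, which encodes tissue plasminogen activator, had 6.75 over 766 bp (8.81 per kb), 27211 bp or more downstream of the canonical start, and a second region with 4.97 also lay inside the gene.

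The growth factors and hormones had the highest median level per kb of the role groups, 21.1 over the 8 of 11 with a region, and 5 of the 8 were above the 19.0 of the median promoter. FGF2, a heparin-binding mitogen, had 38.3 over 1187 bp (32.3 per kb), the highest level per kb of the chosen regions of all members. AREG, a ligand of the EGF receptor, had 40.8 over 1322 bp (30.9 per kb). INHBA, the activin A subunit, had 33.3 over 1513 bp (22.0 per kb), upstream of its canonical start, and 2 further regions with 11.1 and 3.01. WNT16, a Wnt ligand, had 15.2 over 729 bp (20.9 per kb) and a second region with 2.25. These 4 regions stood at percentiles 3, 6, 13 and 5.5 of width among the 200 promoters of similar mean, in that order. That is the same observation as their level per kb, which is the mean divided by the width.

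VEGFA, the main angiogenic factor, had 4 regions. The strongest held 115 mean normalized counts over 5404 bp (21.3 per kb) and began 1851 bp downstream of the canonical start, while a region of 1426 bp across the start site held 55.2 and was denser, at 38.7 per kb. The other 2 regions held 28.1 and 10.0. EREG and STC1, the latter a calcium-regulating hormone, had 16.3 and 17.5 per kb. GDF15, a stress-induced hormone of the TGF-β superfamily, was the lowest of the group, with 5.10 over 717 bp (7.11 per kb), starting 1939 bp downstream of the canonical start, and 4.09 in a second region across it. HGF, ANGPTL4 and TGFB1 had no region. The nearest lay 5871 bp from HGF (5.37 mean normalized counts), 23555 bp from ANGPTL4 (3.82) and 9106 bp from TGFB1 (31.9).

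Among 4 receptors and adhesion molecules, IL6ST, the gp130 subunit through which IL-6 and LIF signal, had 68.6 mean normalized counts over 3624 bp (18.9 per kb), across its start site. The gene of its ligand IL-6 had 5.996 per kb. ICAM1, which binds leukocyte integrins, had the lowest level of all members, 1.16 over 500 bp (2.31 per kb), upstream of its canonical start. TNFRSF1A and TNFRSF1B, the receptors of TNF, had no region. The nearest lay 7560 bp from TNFRSF1A (3.83 mean normalized counts) and 39348 bp from TNFRSF1B (6.13). FN1, which encodes fibronectin, had 3 regions, of which the strongest held 14.8 over 1289 bp (11.5 per kb), and the others held 9.62 and 9.48. SPP1, which encodes osteopontin, had none, and the nearest lay 23399 bp away with 3.56.

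**Figure D3:**
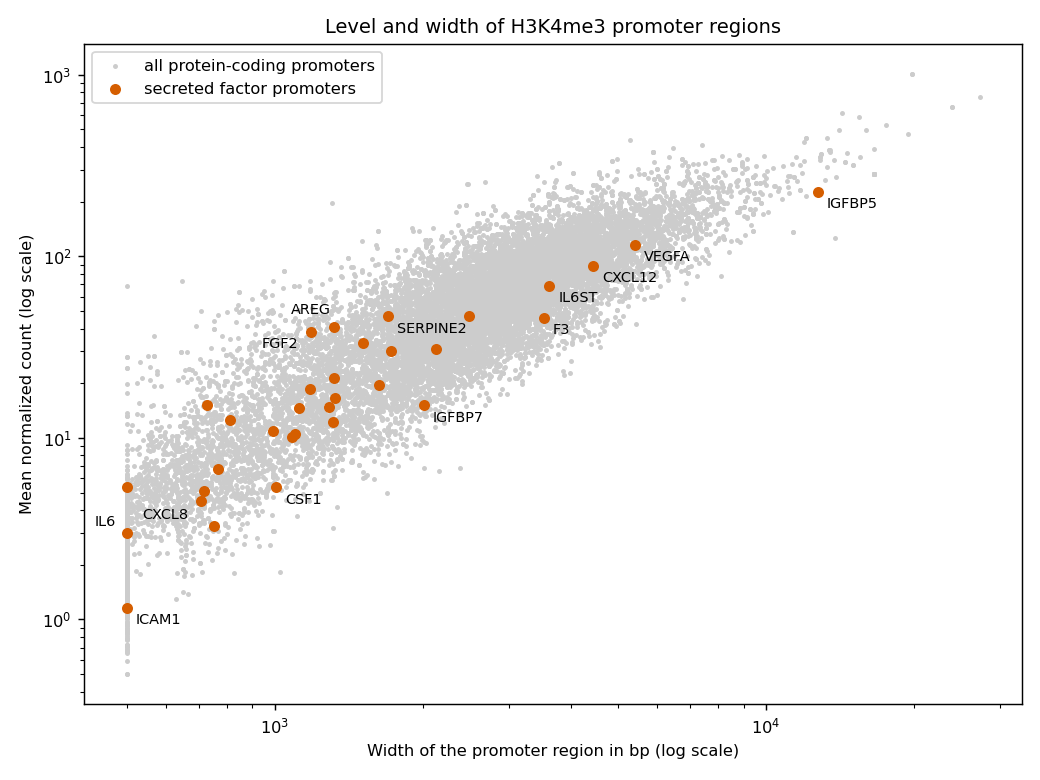
Mean normalized count against width in bp (both log scale) of the promoter region, in grey for all 15085 promoters with a region and in orange for the 33 secreted factor promoters. IGFBP5 lies far right at 12732 bp, FGF2 and AREG lie on the upper left edge of the cloud, and IGFBP7, CSF1 and F3 lie on its lower right side.

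Set beside promoters of similar mean normalized count, the secreted factors as a list did not stand apart in width. The level per kb is the mean divided by the width, so at a like mean they did not stand apart in it either. Each of the 33 genes was placed among the 200 promoters nearest in mean, and 17 were wider than the median of these neighbours, with a median percentile of 51. For the GC content of the region, 15 of 33 lay above their neighbours (median percentile 45), and for the observed over expected CpG ratio around the start site, also 15 (median percentile 36). Single genes lay at both ends. IGFBP5, IGFBP7, CSF1 and PLAUR were wider than at least 94.0% of their neighbours, whereas FGF2, WNT16, AREG and SERPINE2 were wider than at most 8.5%. The neighbours of PLAUR had a median width of 500 bp, the smallest width of any promoter region, so its rank at 752 bp says little. At ICAM1, IL6 and CCL2 the region was exactly 500 bp wide, as were 37.1% of all regions in the table.

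Most secreted factor genes without a region had a start site poor in CG, measured as the ratio of observed to expected CG over 500 bases on each side of the canonical start. The median ratio was 0.649 at the secreted factor genes with a region and 0.276 at those without, against 0.772 and 0.272 over all protein-coding genes. Below a ratio of 0.4, 5 of 15 secreted factor genes had a region (33.3%, all genes 31.4%), and CCL5, CCL20, CSF2, HGF, IL1A, IL1B, MMP1, MMP3, SPP1 and TNFRSF1A did not. From 0.4 to 0.6, all 7 had one (all genes 64.4%), and at 0.8 or more, all 10 did (all genes 94.6%). From 0.6 to 0.8, the share was 11 of 16 (68.8%), against 91.9% of all genes, and the 5 without were ANGPTL4, IGFBP4, MMP2, TGFB1 and TNFRSF1B.

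The level of the marked secreted factor promoters was also set beside that of all promoters with a like ratio at the canonical start. Below a ratio of 0.4 their median was 10.8 mean normalized counts per kb, against 11.1 for all promoters of the class, and 6.75 against 14.8 in the whole region. In this class the regions of INHBA and PLAT lay away from the canonical start where the ratio was taken, so their levels are not levels at that sequence. From 0.4 to 0.6 the medians were 12.5 and 16.6 per kb, from 0.6 to 0.8 they were 12.04 and 19.99, and at 0.8 or more they were 17.4 and 20.02. In the whole region, the medians of these 3 classes were 15.2, 14.8 and 28.5 mean normalized counts, against 34.7, 55.4 and 55.1. There too, some chosen regions lay wholly outside the sequence where the ratio was taken. These were the regions of IL6, GDF15, WNT16, PLAUR, VEGFA, CXCL12, FGF2 and TIMP2. CSF1, whose region ended 5 bp past a CpG-rich start, had 5.29 per kb, whereas STC1, whose region spanned a CpG-poor start, had 17.5 per kb.

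**Figure D4:**
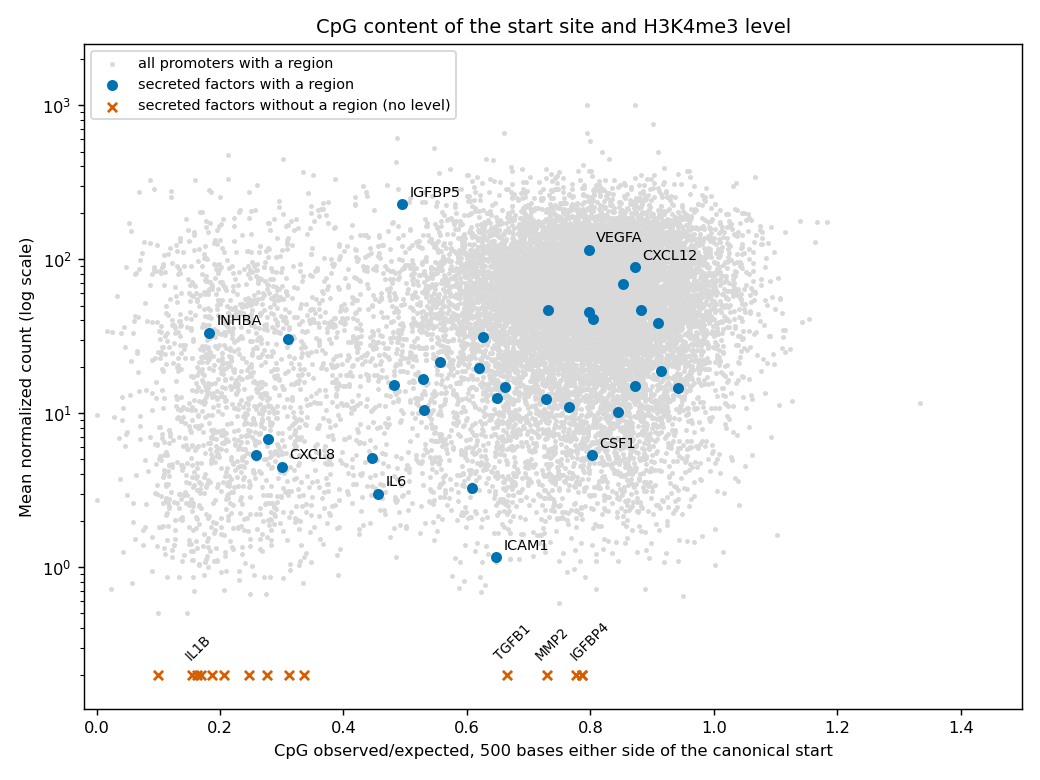
Mean normalized count of the promoter region (log scale) against the CpG observed over expected ratio around the canonical start, in grey for all promoters with a region, in blue for secreted factor genes with one, and as orange crosses on a line without a level for those without. Of the 15 crosses, 10 lie below a ratio of 0.4 and 5 between 0.6 and 0.8.

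The chosen region of a secreted factor did not always cover the canonical start. The chosen region spanned the canonical start in 17 of the 33 genes, against 64.1% of all promoters with a region. No interval was computed for this count or for the smaller ones below, so they are not read as a difference from all promoters. GC content was taken over the 500 bases on each side of the start. At 70% or more, the chosen region covered the start in 2 of 8 secreted factor genes, F3 and IGFBP7. Over all promoters of that class the share was 27.04%. The chosen regions of CXCL12, FGF2, IGFBP2, IGFBP3, SERPINE2 and TIMP2 were the 6 that did not cover it. In the classes of lower GC content the chosen region covered the start in 2 of 3 secreted factor genes below 50% (all promoters 47.1%). It did so in 5 of 10 from 50 to 60% (81.1%) and in 8 of 12 from 60 to 70% (73.7%). GDF15, IL6, PLAT, PLAUR and WNT16 were the 5 whose chosen region did not cover it in the class from 50 to 60%. Weaker regions of GDF15 and VEGFA spanned the canonical start, and a weaker region of CXCL12 reached just to it. The part that GC content had in these levels was not tested.

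**Figure D5:**
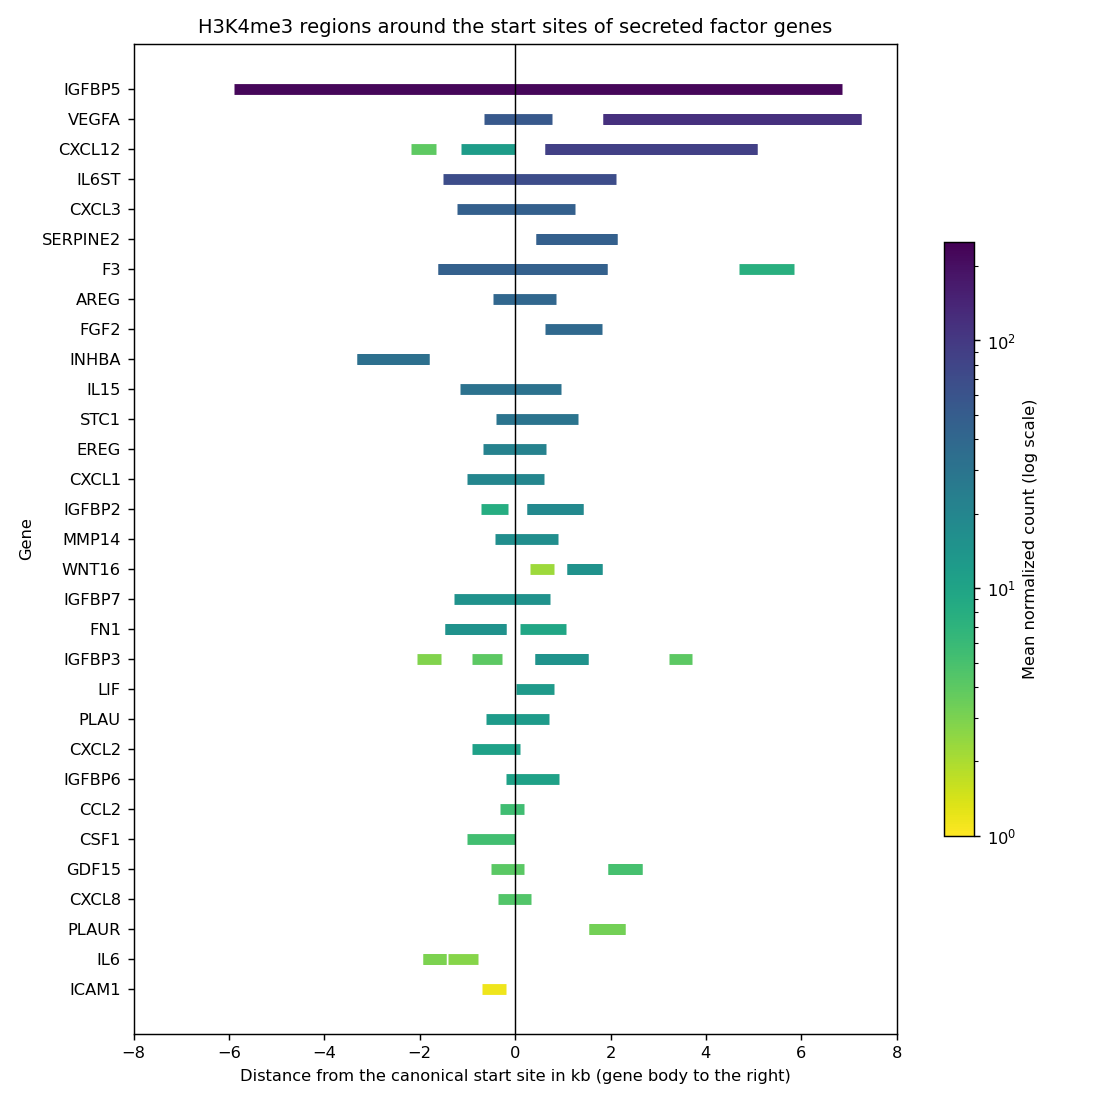
Position of the H3K4me3 regions of 31 secreted factor genes relative to the canonical start site in kb, with the gene body to the right and colour for the mean normalized count (log scale), ordered by promoter value. TIMP2 and PLAT, whose regions lie over 8 kb into the gene, are not drawn, nor are far regions of other genes. The bars of FGF2, IGFBP2 and SERPINE2 leave the line at 0 free, and a weaker bar of CXCL12 ends at it. That of IGFBP5 spans it over 12732 bp.

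The RefSeq promoter table, from 250 bases before to 50 bases after the start, held 35 of the 48 genes, 24 with a region and 11 without. The κB motif was searched as GGGRNWYYCC, where R is A or G, W is A or T, Y is C or T and N is any base. Sites that differ from these letters were not counted. This motif occurred on either strand in 8 of the 35 (22.9%), against 6.41% of all 15344 promoters of the table. The 8 were CXCL1, CXCL2, CXCL3, IGFBP2, IGFBP5, IGFBP6 and IL6, which had a region, and CCL20, which had none. The AP-1 motif TGANTCA occurred in 4 (11.4%, all promoters 5.50%), CXCL8, F3, PLAUR and IL1A. TATAAA occurred in 11 (31.4%, all promoters 9.42%), 7 with a region and 4 without. These were AREG, CXCL8, EREG, F3, GDF15, ICAM1, INHBA, ANGPTL4, CCL20, IGFBP4 and IL1A. No matches of different motifs overlapped in these genes. The printed stretches of IL6 and IGFBP5 include their κB match and that of CXCL8 its AP-1 match. Among the secreted factors, the κB motif was in 7 of the 24 genes with a region and 1 of the 11 without, AP-1 in 3 and 1, and TATAAA in 7 and 4. Over all promoters, the shares with and without a region were 6.66% and 5.52% for κB, 4.18% and 10.1% for AP-1, and 6.29% and 20.4% for TATAAA. A match describes the letters alone.

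Of 31 genes that regulate the secretory programme, 26 had a region (83.9%, Wilson interval 67.4 to 92.9), a share near the 75.3% of all genes. Their median was 15.97 mean normalized counts per kb, with 16 of the 26 below the 19.0 of the median promoter, over a median width of 2779 bp. The highest by mean normalized count were JUN, an AP-1 subunit, with 150 over 5906 bp (25.4 per kb), and NFKB1, the p105 and p50 subunit of NF-κB, with 114 over 5161 bp (22.1 per kb). The lowest was FOSL1, another AP-1 subunit, with 8.003 over 657 bp (12.2 per kb). RELB, CEBPA, STING1, CGAS and IRAK1 had no region.

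The cell type of the label was checked on marker promoters. Of 18 beta cell markers, 17 had a region (94.4%, all genes 75.3%), with a median of 25.2 mean normalized counts per kb and a median width of 6828 bp. The defining transcription factor genes PDX1 and NKX6-1 had 22.5 and 25.2 per kb and INS 14.0 per kb, whereas MAFA had no region. ABCC8 (11.1 per kb), KCNJ11 (10.6), G6PC2 (8.81), IAPP (7.56) and INS were the 5 of 17 below the 19.0 of the median promoter. Of 7 other islet endocrine markers, 5 had a region, as did 5 of 7 exocrine and duct, 5 of 6 stromal and 3 of 5 endothelial markers, with medians of 12.2, 7.09, 7.60 and 15.3 per kb. Among immune markers, CD68 and CD14 had a region and PTPRC, CD3E, AIF1 and SPI1 did not, and the CD68 region was shared with MPDU1.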

How the data were processed

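MINT-ChIP for H3K4me3 was made on EndoC-βH3 cells, 4 samples before and 4 after senescence was induced. Per the study's methods and the submitters' processing notes, alignment to hg38 used Bowtie2 and SAMtools, peak calling used HOMER, and the authors compared both states in DESeq2. Whether duplicates were removed, how peaks were merged and how reads were counted is not given in the sources used here. The deposited signal is the authors' mean, over the samples, of counts normalized with DESeq2, and it holds no value per sample. The other 5 deposited columns are the authors' comparison of the states (fold change, error, statistic, p-value and adjusted p-value) and were not used, so no test was made. Columns of samples left unused numbered 0.

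All transcripts of protein-coding genes in GENCODE release 44 supplied start sites. The region of highest mean within 2 kb of them stood for the promoter. The level per kb is this mean divided by the region's width. Widths and compositions were set beside those of the 200 promoters nearest in mean. GC and CpG content came from hg38, over 500 bases on each side of the canonical start. Promoter sequences came from RefSeq (hg38), which held 35 of the 48 genes and not CCL2, CCL5, CSF1, IGFBP7, IL15, LIF, MMP1, MMP2, MMP3, PLAT, STC1, TIMP2 and VEGFA. Stretches of 31 bases, taken every 10 bases of a region, were counted on both strands of hg38. Shares have 95% Wilson intervals and medians order-statistic intervals, which reflect the number of genes alone and not the error of the measurement.

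All 48 genes are named, with full values for the 2 highest and the lowest by mean in each role group, for genes without a region and for genes with several regions. The members and the lists of genes were chosen with earlier results of these data known. The procedure was tested on simulated data. Scripts ran in Python 3.11.15 (numpy 2.4.6, numba 0.67.0, pandas 2.3.3, pysam 0.24.0, scipy 1.17.1, matplotlib 3.10.9).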

Additional observations from a re-analysis of the deposited data

How the results depend on the processing

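The count of secreted factor genes with a region, and the medians of their mean normalized count, level per kb and width, were recomputed under 9 other settings of the window, start sites, overlap, chosen region and filter, of which 1 was chosen after seeing the data (start sites of protein-coding transcripts alone). Over these 35 values, each count stayed within 1.5 times the reported one and each median within its 95% interval, and in 27 of 27 cases the median lay below that of all promoters. The count with a region was 31 with canonical start sites alone, which dropped TIMP2 and PLAT, 34 within 5 kb, which added MMP2, 29 when regions under 5 mean normalized counts were left out and 25 under 10. The median mean normalized count ranged from 12.6 (region nearest a start site) to 21.5 (regions of at least 10), the level per kb from 12.04 to 15.8 and the width from 1187 to 1396 bp. No paired analysis was possible because the deposited means carry no value per sample, and for the same reason no replicate could be left out. Depth per sample is unknown, so a gene without a region is one with none called, not one shown to lack H3K4me3.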
